A study of Mus musculus with 30 samples.

Results

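The genes described here encode subunits and assembly factors of the mitochondrial respiratory chain and the ATP synthase, measured in blood leukocytes of mice given cyclophosphamide, an alkylating cytotoxic drug. Members were all genes with a probe of 1 platform symbol that begins with Nduf, Sdha to Sdhd, Uqcr, Cox4 to Cox8 or Atp5, or that is Cyc1 or Cycs. Genes entered by name and not by their values, but the naming rule was chosen with earlier results of these data known. The rule found 76 genes on 80 probes, out of 13027 features of the array. Of these, 39 were tested, because they had values in at least 2 samples at day 5 and in at least 3 of every other group (51.3%, against 49.1% of the 9616 genes with 1 symbol). The other 37 members are accounted for below.

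The study compared peripheral blood leukocytes of mice of the inbred DBA/2 strain: 4 untreated samples, and samples drawn 1 day (4), 2 days (4) and 5 days (3) after an intraperitoneal injection of 83 mg per kg cyclophosphamide. Each sample was hybridised in 2 technical replicates, which were averaged. A value is the log2 ratio of the blood sample (Cy5) over a reference of pooled DBA/2 bone marrow cells (Cy3) that was on every array. The labels call the pooled marrow untreated in one field and treated with the same dose in another. The sources used here do not give sex, age or the number of mice behind a blood sample. The samples were harvested independently per the series' design text, and p-values measure the spread between these samples only. Marker levels set against the label of the tissue gave medians per untreated sample of 0.36 to 1.89 over 3 tested T cell genes and 1.66 to 2.25 over 5 tested platelet genes, both above the marrow reference, and -1.68 to -0.79 over 11 tested cell division genes. Between 39.5% and 69.9% of probes had a value in a column, and day 2 replicate 1 had values for 33 members, the fewest, against at most 51.

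The respiratory chain sits in the inner mitochondrial membrane. Complex I (NADH dehydrogenase) and complex II (succinate dehydrogenase) pass electrons to ubiquinone, complex III passes them on to cytochrome c, and complex IV (cytochrome c oxidase) passes them to oxygen. Complexes I, III and IV pump protons, and the ATP synthase uses the proton gradient to make ATP through its membrane part Fo and its catalytic part F1. All members are nuclear genes, 1 of them an untested pseudogene (Ndufs5-ps). The subunits encoded by mitochondrial DNA are not among them. Among blood cells, neutrophils rely largely on glycolysis, lymphocytes and monocytes make more use of respiration, and red cells lose their mitochondria as they mature.

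Most members were called in no comparison of the 4 groups, and the same held for most of all tested features. Against untreated samples, 1 of 39 tested members was called at each of days 1, 2 and 5 (2.56%, against 4.60%, 12.7% and 1.09% of all tested features). From day 1 to day 2 limma called 0 (against 1.15%), with 2 at an unadjusted p under 0.05 (760 of all 6515 features). At day 5, 5 members were called relative to day 1 (12.8%, against 18.8%) and 6 relative to day 2 (15.4%, against 25.5%). Those lower at day 5 in both comparisons were the ATP synthase genes Atp5g2 and Atp5d, the complex III gene Cyc1 and the complex I core gene Ndufs7. A call is an adjusted p under 0.05 over 6515 features in limma's moderated test. In all, 8 of the 39 tested members were called in at least 1 of 6 comparisons, and 31 in none, while 2093 of all 6515 tested features were called in at least 1 (32.1%). In RNA of mixed blood cells, fewer cells of a type and less RNA per cell cannot be told apart.

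Promoter sequences are shown for 4 of the members that passed a test, because factors known to regulate respiratory chain genes have short recognition motifs. Atp5g2, Atp5d and Ndufs7 were lower at day 5 than at both day 1 and day 2, and Ndufc2 was lower at days 1 and 2 than in untreated samples. Each sequence is the 250 bases before the transcription start in RefSeq's annotation of GRCm38.p6, written 5′ to 3′ on the strand of the gene, with the matched letters in capitals. The searches were GCGCANGCG for NRF-1, CCGGAA for GABP and other ETS factors, and GCCATNTT for YY1, on both strands, with overlapping matches of a motif counted as 1. Atp5g2 (gene 67942) has its promoter at chr15:102671048-102671297 on the minus strand, Ndufs7 (gene 75406) at chr10:80249199-80249448 on the plus strand, Atp5d (gene 66043) at chr10:80142025-80142274 on the plus strand and Ndufc2 (gene 68197) at chr7:97399753-97400002 on the plus strand.
Atp5g2: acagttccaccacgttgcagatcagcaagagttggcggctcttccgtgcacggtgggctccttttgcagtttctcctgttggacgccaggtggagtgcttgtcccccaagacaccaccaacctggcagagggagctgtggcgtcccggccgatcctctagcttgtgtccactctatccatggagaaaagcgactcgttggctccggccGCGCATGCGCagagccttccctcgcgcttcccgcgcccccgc
Atp5d: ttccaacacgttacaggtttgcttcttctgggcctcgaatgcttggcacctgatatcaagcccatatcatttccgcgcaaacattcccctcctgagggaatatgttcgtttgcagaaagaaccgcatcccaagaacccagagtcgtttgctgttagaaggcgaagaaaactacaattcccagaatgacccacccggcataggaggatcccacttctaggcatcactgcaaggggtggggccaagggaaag
Ndufs7: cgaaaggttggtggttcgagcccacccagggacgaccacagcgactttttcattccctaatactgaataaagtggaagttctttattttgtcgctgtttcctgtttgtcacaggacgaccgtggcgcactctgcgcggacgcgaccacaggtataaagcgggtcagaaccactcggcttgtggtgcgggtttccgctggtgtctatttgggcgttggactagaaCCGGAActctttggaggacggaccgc
Ndufc2: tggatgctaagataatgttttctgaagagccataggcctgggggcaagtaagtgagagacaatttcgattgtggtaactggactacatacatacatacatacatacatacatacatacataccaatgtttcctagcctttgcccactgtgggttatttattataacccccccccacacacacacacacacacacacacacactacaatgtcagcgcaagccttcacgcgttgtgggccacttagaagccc
In Atp5g2 the capitals mark an NRF-1 match from 42 to 33 bases before the start. Ndufs7 has a GABP match 26 to 21 bases before the start. Atp5d and Ndufc2 hold none of the 3 motifs in these letters, nor does the sequence before the other RefSeq start of Atp5d. Of the other called members with an entry, Ndufb4 (gene 68194) has 3 NRF-1 matches, Ndufa9 has 1 GABP match and Uqcrc1 has none. Each of the 4 sequences holds at most 1 match, so none overlap. Of 65 members with an entry, 13 had an NRF-1 match (20%, against 5.86% of 27025 genes), 19 a GABP match (29.2%, against 13.6%) and 7 a YY1 match (10.8%, against 4.49%). Of the 32 tested members among them, 8 had an NRF-1 match (25%), 11 a GABP match (34.4%) and 2 a YY1 match (6.25%, near the share of all genes). These are matches of letters and say nothing of binding. Cyc1 has no entry in the promoter table.

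Against the marrow reference, most members were lower in blood leukocytes. In untreated samples the group mean was below 0 for 30 of 39 tested members (76.9%, against 52.4% of all tested features), with a median of -0.24. At day 5 it was below 0 for 28 (71.8%, against 53.1%). A total of 16 members had a ratio below 0 in every sample with a value, and only Ndufa6 and Cox7b2 were above 0 in every such sample. The same count was not made over all tested features, so whether 16 is unusual cannot be told. The lowest untreated means belonged to Cyc1, the heme-bearing cytochrome c1 of complex III (-1.12 ± 0.10, SD, n = 4), to Ndufa5, an accessory subunit of complex I (-1.11 ± 0.26, SD, n = 4), and to Atp5j, a stalk subunit of the ATP synthase (-1.08 ± 0.27, SD, n = 3). The highest belonged to Ndufa6, another accessory subunit (0.55 ± 0.12, SD, n = 4). The reference is a pool without replicates, so no test was made of a level against 0, and a dye effect is part of each level.

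Median levels differed between complexes, and in complex IV the median depended on which isoforms were counted. Complex I members had a median untreated mean of -0.30 (17 genes), the ATP synthase -0.29 (7 genes), complex II -0.13 (3 genes), complex III -0.12 (4 genes) and complex IV -0.01 (8 genes). The ranges overlapped widely, from -1.12 to 0.21 in complex III and from -0.40 to 0.37 in complex IV. Within complex IV, the 3 tested isoforms known from muscle or testis (Cox6a2, Cox7b2 and Cox8b) had untreated means of 0.02 to 0.37, and 4 of the 5 other subunits were below 0. The median of these 5 was -0.24, near those of complex I and the ATP synthase. Ratios of different probes are compared with the same reference here and give no order of transcript amounts.

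**Figure D1:**
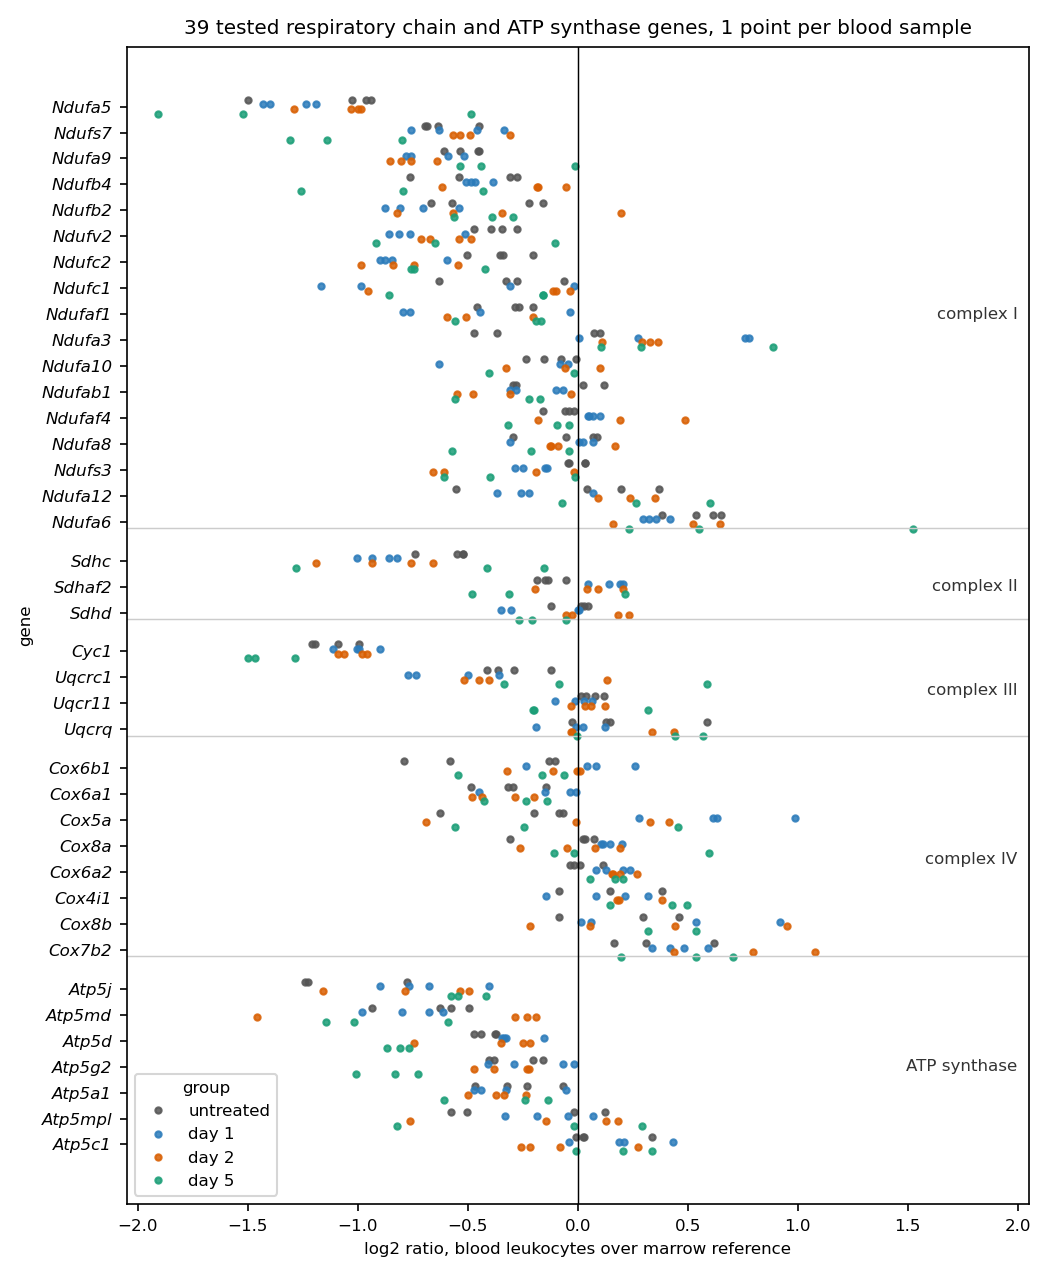
Log2 ratio of blood leukocytes over the marrow reference (x axis) for the 39 tested members (y axis, by complex), with 1 point per blood sample and colours for the 4 groups. Most points lie left of 0; the day 5 points of Atp5g2, Atp5d, Cyc1 and Ndufs7 lie left of the other groups, and Ndufa6 and Cox7b2 lie right of 0 throughout.

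The members varied between groups about as much as other features. The range of the 4 group means had a median of 0.35 over members and 0.38 over all tested features, and the median standard deviation within groups was 0.23 and 0.22. Technical replicates of a member differed by a median of 0.082 (594 pairs). In the moderated F test over the 4 groups, 5 of 39 members were called (12.8%, against 22.7% of all tested features), namely Atp5g2, Ndufs7, Cyc1, Atp5d and Ndufc2. An unadjusted p under 0.05 was found for 11 members and for 2354 of all 6515 tested features. The median ratio over the tested members ranged from -0.32 to -0.08 in untreated samples, from -0.30 to -0.10 at day 1, from -0.42 to -0.11 at day 2 and from -0.33 to -0.16 at day 5. These ranges overlap in all 4 groups, and the lowest value came from day 2 replicate 1, the sample with fewest member values.

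The lowest adjusted p of any member was that of an ATP synthase gene. Atp5g2 encodes a copy of the c subunit, which forms the rotating ring of Fo. Its log2 ratios were -0.21, -0.38, -0.16 and -0.40 in untreated samples, -0.07, -0.02, -0.29 and -0.41 at day 1, -0.47, -0.38, -0.22 and -0.23 at day 2, and -0.83, -0.73 and -1.01 at day 5. All 3 day 5 samples lay below all 12 others, and the other 3 groups overlapped. From day 1 to day 5 it fell by 0.66 ± 0.12 (SE, limma adjusted p = 0.0029), which is 1.58-fold, and this call was kept in all 26 alternative settings. From day 2 to day 5 it fell by 0.53 ± 0.12 (SE, adjusted p = 0.0055).

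Against untreated samples, Atp5g2 was the single member called at day 5, where 1.09% of all tested features were. It fell by 0.57 ± 0.12 (SE, limma adjusted p = 0.037). The call was lost without untreated replicate 1, 2, 3 or 4 (adjusted p = 0.11, 0.052, 0.099 and 0.062), without day 1 replicate 1 or 3 (0.051 and 0.052), without day 2 replicate 3 (0.051) and without day 5 replicate 1 or 3 (0.12 and 0.059), with changes of -0.61 to -0.49. A fit of the 2 groups alone gave an adjusted p of 0.14, and quantile normalization a change of -0.47 (0.15).

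Atp5d (gene 66043) encodes the delta subunit of F1, part of its central stalk. The ratios were -0.37, -0.37, -0.47 and -0.44 in untreated samples, -0.33, -0.16, -0.33 and -0.34 at day 1, -0.22, -0.75, -0.35 and -0.25 at day 2, and -0.81, -0.77 and -0.87 at day 5. The 3 day 5 samples were the lowest of all, although day 2 replicate 2 came close to them. Atp5d fell by 0.53 ± 0.12 (SE, limma adjusted p = 0.0086) from day 1 to day 5 and by 0.43 ± 0.12 (SE, adjusted p = 0.018) from day 2 to day 5. Against untreated the change at day 5 was -0.40 (adjusted p = 0.13). The gene has 2 probes, and their changes were -0.54 and -0.51 from day 1 to day 5 and -0.35 and -0.50 from day 2 to day 5. With the first of these probes alone, neither comparison passed (adjusted p = 0.051 and 0.18), and without day 2 replicate 1 or 4 the change from day 2 did not pass (0.051 and 0.050).

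The other 5 tested ATP synthase genes were called in no comparison. Atp5a1, the alpha subunit of the catalytic F1 head, had means of -0.27, -0.32, -0.36 and -0.33 in untreated, day 1, day 2 and day 5 samples, and all its changes lay between -0.09 and 0.03. Atp5j was the member that lay highest at day 5 in this complex relative to untreated, at -0.77, -1.23 and -1.24 in untreated samples (replicate 2 has no value) and -0.58, -0.42 and -0.55 at day 5. These groups do not overlap, but the change of 0.57 ± 0.19 did not pass (SE, limma adjusted p = 0.16).

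Complex III held a called gene that was lower at day 5 and another that was higher. Cyc1 (gene 66445) had ratios of -0.99, -1.09, -1.20 and -1.21 in untreated samples, -1.004, -0.99, -0.90 and -1.11 at day 1, -1.09, -0.98, -0.96 and -1.06 at day 2, and -1.47, -1.29 and -1.50 at day 5. Day 5 lay below every other sample, and samples within a group were close together. It fell by 0.42 ± 0.10 (SE, limma adjusted p = 0.011) from day 1 to day 5 and by 0.39 ± 0.10 (SE, adjusted p = 0.0098) from day 2 to day 5. When columns were scaled to 1 spread these changes were -0.19 and -0.23 (adjusted p = 0.53 and 0.44).

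Uqcrc1 (gene 22273) encodes a core subunit of complex III and went the other way. Its ratios were -0.29, -0.36, -0.12 and -0.41 in untreated samples, -0.77, -0.36, -0.50 and -0.74 at day 1, -0.40, 0.13, -0.52 and -0.45 at day 2, and -0.08, 0.59 and -0.33 at day 5. Day 5 samples lay above those of day 1 and overlapped the other groups. It rose by 0.65 ± 0.20 (SE, limma adjusted p = 0.036) from day 1 to day 5, and its change from day 2 was 0.37 (0.20). The call was lost without day 1 replicate 1 or 4 (adjusted p = 0.096 and 0.083), without day 5 replicate 1 (0.061) and without day 5 replicate 2, where the change was 0.38 (0.19). Uqcr11 and Uqcrq, small subunits, were called in no comparison. The 2 probes of Uqcrq differed, with changes from day 1 to day 5 of 0.10 and 0.60.

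In complex I, 4 of 17 tested members were called in some comparison, where 32.1% of all tested features were. Ndufs7, a core subunit that carries an iron-sulfur cluster close to the ubiquinone site, had ratios of -0.69, -0.69, -0.45 and -0.64 in untreated samples, -0.46, -0.33, -0.76 and -0.63 at day 1, -0.57, -0.31, -0.54 and -0.49 at day 2, and -1.14, -0.80 and -1.31 at day 5. Again the day 5 samples lay below all others. Ndufs7 fell by 0.54 ± 0.14 (SE, limma adjusted p = 0.014) from day 1 to day 5 and by 0.61 ± 0.14 (SE, adjusted p = 0.0041) from day 2 to day 5. Without day 5 replicate 1 the first of these did not pass (adjusted p = 0.053), nor did it with quantile normalization (0.068). The other tested core subunits, Ndufs3 and Ndufv2, were called in no comparison, with changes of 0.03 and 0.05 from day 2 to day 5.

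Ndufb4 and Ndufa9 are accessory subunits of complex I. Ndufb4 had ratios of -0.31, -0.27, -0.54 and -0.76 in untreated samples, -0.38, -0.51, -0.47 and -0.49 at day 1, -0.62, -0.05, -0.18 and -0.18 at day 2 and -0.79, -0.43 and -1.26 at day 5, so that days 2 and 5 overlapped through day 2 replicate 1 and day 5 replicate 2. It fell by 0.57 ± 0.18 (SE, limma adjusted p = 0.031) from day 2 to day 5. The call was lost without day 2 replicate 2, 3 or 4 (adjusted p = 0.073, 0.069 and 0.065), without day 5 replicate 1 (0.073) and without day 5 replicate 3, where the change was -0.35 (0.15). Ndufa9 (gene 66108) had ratios of -0.45, -0.45, -0.61 and -0.54 in untreated samples, -0.76, -0.52, -0.78 and -0.59 at day 1, -0.80, -0.76, -0.85 and -0.64 at day 2 and -0.53, -0.01 and -0.44 at day 5. Days 2 and 5 did not overlap. It rose by 0.44 ± 0.13 (SE, adjusted p = 0.020), and lost its call without day 2 replicate 3 (0.052) and without day 5 replicate 2, where the change was 0.28 (0.11).

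Ndufc2, an accessory subunit of the membrane arm of complex I, was the member called at days 1 and 2 against untreated. Its ratios were -0.35, -0.50, -0.34 and -0.20 in untreated samples, -0.88, -0.60, -0.85 and -0.90 at day 1, -0.98, -0.54, -0.74 and -0.84 at day 2, and -0.76, -0.42 and -0.74 at day 5. All day 1 and day 2 samples lay below all untreated ones, and day 5 overlapped both sides. It fell by 0.45 ± 0.12 (SE, limma adjusted p = 0.046) at day 1 and by 0.43 ± 0.12 (SE, adjusted p = 0.031) at day 2. Both calls were close to the threshold. The day 1 call was lost when any 1 of the 4 untreated or 4 day 1 samples, or day 2 replicate 3 or 4, was left out, with adjusted p up to 0.15 and changes of -0.52 to -0.41. The day 2 call was lost without untreated replicate 1, 3 or 4 (adjusted p = 0.059, 0.067 and 0.10) and without day 2 replicate 1, 3 or 4 (0.083, 0.058 and 0.072).

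**Figure D2:**
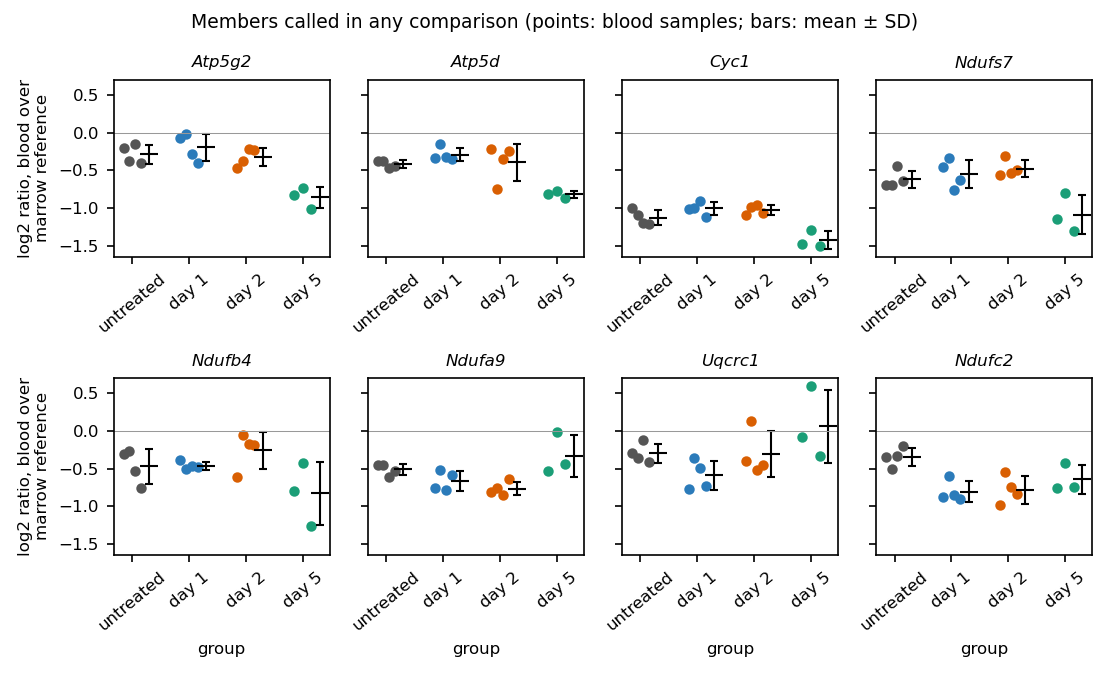
Log2 ratio of blood leukocytes over the marrow reference (y axis) in each blood sample by group (x axis) for the 8 members called in any comparison, with bars for the mean ± SD of 4 samples (3 at day 5). The day 5 samples of Atp5g2, Atp5d, Cyc1 and Ndufs7 lie below all other samples, and the day 1 and day 2 samples of Ndufc2 lie below the untreated ones.

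Complexes II and IV had no called member in any of the 6 comparisons (limma, 0 of 3 and 0 of 8). Of all tested features, 32.1% were called in at least 1. At an unadjusted p under 0.05, complex II had 1 member from day 1 to day 2 and 1 from day 1 to day 5. Complex IV had 2 members at day 1 and 1 at day 2 against untreated, and 1 each from day 1 to day 2 and from day 1 to day 5. Of all 6515 features, 1376 and 1740 had such a p at days 1 and 2 against untreated. From day 1 to day 2 it was 760 features, and from day 1 to day 5 it was 2222. Sdhc, a membrane anchor of complex II, had means of -0.58 ± 0.11 in untreated, -0.91 ± 0.08 at day 1, -0.88 ± 0.23 at day 2 (SD, n = 4 each) and -0.61 ± 0.59 at day 5 (SD, n = 3). The largest change of any member, in complex IV, was that of Cox5a, a matrix-side subunit, at day 1. Its ratios were -0.07, -0.63, -0.08 and -0.20 in untreated samples and 0.99, 0.63, 0.61 and 0.28 at day 1, with no overlap. The change of 0.87 ± 0.25 did not pass (SE, limma adjusted p = 0.059). It did pass with quantile normalization (0.97, adjusted p = 0.040), with columns scaled to 1 spread (1.01, 0.041), with values in all samples only (0.047), with a robust trended prior (0.045), with array weights (0.017) and with a fit of the 2 groups alone (0.018). It also passed without day 2 replicate 1 (0.032) and without day 5 replicate 1 or 2 (0.044 and 0.049). At day 2 the ratios were -0.69, -0.01, 0.41 and 0.33. Ndufa3, of complex I, had the next largest at day 1, 0.62 ± 0.20 (SE, adjusted p = 0.086).

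At day 2 against untreated and at day 5 against days 1 and 2, the share of called members lay below the share over all features. At day 1 against untreated, 6 members had an unadjusted p under 0.05, as had 1376 of all 6515 features. After Cox5a and Ndufa3 the largest positive change was that of Cox6b1, another complex IV subunit (0.44 ± 0.17, SE, limma adjusted p = 0.14). After Ndufc2 the largest negative changes were those of Ndufv2, a core subunit of complex I (-0.36, 0.16), and the accessory subunit Ndufb2 (-0.33, 0.33). The medians of the changes were -0.03 over members and 0.03 over all features. For 37 of the 39 the 95% interval of the change lay within 1 log2 unit of 0, that is within 2-fold, the others being Cox5a and Ndufa3. This is 94.9% of members, and 91.2% of all tested features had such an interval. At day 2, 5 members had an unadjusted p under 0.05 (1740 of all features), and the medians were 0.03 and 0.06. All 39 intervals lay within 2-fold, as did those of 88.6% of all tested features. The 3 largest positive changes were those of Ndufa3 (0.44 ± 0.20, SE, adjusted p = 0.17), Cox7b2 (0.41, 0.17) and Atp5j (0.34, 0.23), and after Ndufc2 the largest negative ones were those of Ndufs3 (-0.36, 0.13) and Sdhc (-0.30, 0.33). At day 5, 7 had an unadjusted p under 0.05 (1134 of all features), and the medians were -0.03 and 0.00. With Atp5j, the 3 largest positive changes were those of Ndufa3 (0.59 ± 0.22, SE, adjusted p = 0.20) and Uqcrc1 (0.35, 0.38), and after Atp5g2 the largest negative ones were those of Ndufs7 (-0.47, 0.12) and Atp5d (-0.40, 0.13). From day 1 to day 2 the members with an unadjusted p under 0.05 were Cox5a (-0.62 ± 0.25, SE, adjusted p = 0.34) and Sdhd, a membrane anchor of complex II. The 3 largest positive changes were those of the complex I subunits Ndufa12 (0.42), Ndufb2 (0.35) and Ndufc1 (0.32). After Cox5a the largest negative ones were those of Atp5c1, of F1 (-0.27), and Cox6a1, of complex IV (-0.19). A change that missed the threshold is not shown to be absent.

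At day 5, 4 members were lower and 1 higher than at day 1 (9.09% and 9.67% of all features), with 9 at an unadjusted p under 0.05 (2222 of all 6515 features). Relative to day 2, 5 were lower and 1 higher (12.7% and 12.8% of all features), with 7 at an unadjusted p under 0.05 (2448 of all features). Uncalled members with large changes from day 1 were Cox5a (-0.74 ± 0.27, SE, limma adjusted p = 0.068), Ndufa12 (0.46, 0.13) and Ndufa6 (0.42, 0.21). Ndufa6 stood at 0.55, 1.53 and 0.23 at day 5, so that replicate 2 was far above the others, and its change from day 2 was 0.33 (adjusted p = 0.36) with that sample and -0.053 (0.86) without it. The medians of the changes were -0.01 and -0.03 over members, against -0.05 and -0.07 over all features, where 592 features were lower and 630 higher against day 1, and 830 lower and 834 higher against day 2. The 2 comparisons share the day 5 samples. Members of a complex did not move as 1: in the comparison with day 2 the changes ran from -0.61 to 0.44 in complex I and from -0.53 to 0.25 in the ATP synthase. When columns were scaled to 1 spread, 0 of 39 members were called against day 2 (limma; 4 at an unadjusted p under 0.05), while 1355 of 6515 features still were, with changes of -0.43 for Atp5g2, -0.36 for Atp5d, -0.48 for Ndufs7, -0.46 for Ndufb4 and 0.48 for Ndufa9 (adjusted p = 0.079, 0.052, 0.12, 0.17 and 0.050). A fit of the 2 groups alone left 2 members called, Atp5g2 and Ndufs7. Of the 26 alternative settings, calls from day 1 to day 5 were kept in 25 for Atp5d, 23 for Cyc1, 23 for Ndufs7 and 20 for Uqcrc1, and calls from day 2 to day 5 in 25 for Atp5g2 and Ndufs7, 23 for Cyc1, 21 for Atp5d and Ndufa9 and 18 for Ndufb4. Against untreated they were kept in 10 for Atp5g2 at day 5, and for Ndufc2 in 9 at day 1 and 15 at day 2.

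**Figure D3:**
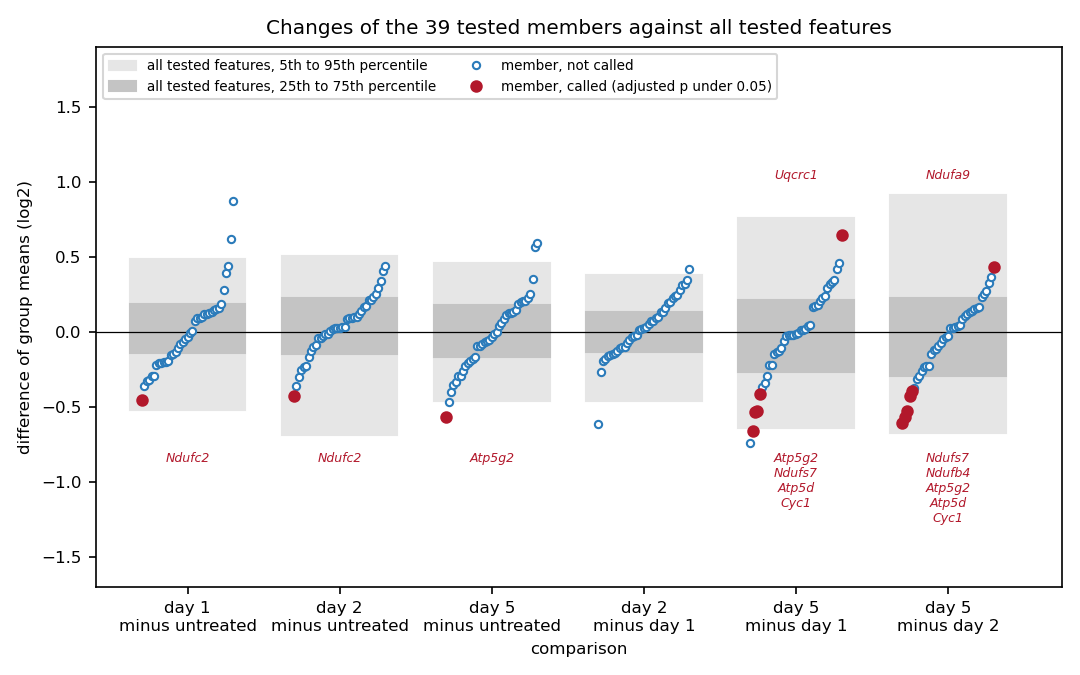
Difference of group means in log2 units (y axis) for the 39 tested members in 6 comparisons (x axis), with called members filled and named and grey bands for the middle of all 6515 tested features. Members centre on 0 in every comparison, and called members lie below 0 except Uqcrc1 and Ndufa9.

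Some cell type markers were called between the same groups, to be read beside the shares over all tested features. Those were 25.5% from day 2 to day 5 and 18.8% from day 1 to day 5. Relative to untreated they were 4.60% at day 1, 12.7% at day 2 and 1.09% at day 5. From day 2 to day 5, 6 of 8 tested neutrophil genes were lower and 4 of 6 monocyte genes higher (limma), and the mean over the neutrophil list ranged from 0.69 to 1.24 in day 2 samples and from -0.68 to -0.24 in day 5 samples. The monocyte mean ranged from -0.24 to -0.13 and from 0.54 to 0.73. Of the B cell list, 3 of 7 genes were lower and 2 higher, and of the NK and cytotoxic list 1 of 6 was lower, while 2 of 7 erythroid genes were higher. Of 11 cell division genes 3 were higher and 2 lower, and 1 of 3 T cell genes was lower. From day 1 to day 5, 2 of 8 neutrophil, 3 of 7 B cell and 2 of 6 NK and cytotoxic genes were lower, 1 B cell gene was higher, and 2 of 7 erythroid genes (Alas2 and Bnip3l) were higher, with 2 of 11 cell division genes higher and 1 lower. At day 1 the platelet mean lay between 3.12 and 3.36, against 1.78 to 1.97 in untreated samples. Against untreated samples, 3 of 5 platelet genes were higher and 3 of 6 monocyte genes and 1 of 7 B cell genes lower at day 1. At day 2, 5 of 8 neutrophil genes were higher, 5 of 6 monocyte, 3 of 6 NK and cytotoxic, 2 of 7 B cell and 2 of 7 erythroid genes were lower, 1 of 3 T cell genes was higher, and 2 of 11 cell division genes were higher and 1 lower. At day 5, 3 of 7 B cell genes, 2 of 6 NK and cytotoxic genes and 1 of 8 neutrophil genes were lower and 1 of 5 platelet genes was higher. The part of these shifts in the members' changes was not tested.

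Other mitochondrial genes were taken from lists chosen with earlier results of these data known. In the protein import list, from day 2 to day 5, 5 of 10 tested genes were lower and none higher (12.7% and 12.8% of all features). The median change was -0.35 against -0.07 over all features. The lower genes included Timm23, the channel of the inner membrane translocase (-0.61 ± 0.18, SE, limma adjusted p = 0.025), Tomm34, a cytosolic import cofactor (-0.59, 0.024), and Grpel1, the nucleotide exchange factor of the import motor (-0.52, 0.0028). From day 1 to day 5, 3 of the 10 were lower (9.09% of all features), Tomm34 with a change of -0.80 (adjusted p = 0.0070). Against untreated at day 5 limma called 0 of the 10 (1.09% of all features), with 2 at an unadjusted p under 0.05 (1134 of 6515 features).

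The mitochondrial ribosome list held called genes in both directions. At day 2 against untreated, 3 of 37 tested genes were lower (Mrpl38, Mrpl57 and Mrps14, with changes of -0.76, -0.63 and -0.59) and Mrpl35 was higher by 0.35 (10.8% called, against 12.7%). From day 2 to day 5, 6 were lower and 3 higher (24.3% called, against 25.5% of all tested features). Those higher were Mrpl38 (1.15 ± 0.14, SE), Mrpl57 (0.97 ± 0.15) and Mrps14 (0.76 ± 0.16), and Mrpl55 was lowest (-0.64 ± 0.18, limma adjusted p = 0.017). Both comparisons share the day 2 samples. Across the list the median change from day 2 to day 5 was -0.10.

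The remaining lists held at most 10 tested genes each. Of all tested features, 25.5% were called from day 2 to day 5, and 4.60% and 12.7% at days 1 and 2 against untreated. From day 2 to day 5, 2 of 6 assembly factors outside the naming rule were lower, Tmem186, of the complex I assembly machinery (-0.80 ± 0.19, SE, limma adjusted p = 0.0057), and Cox16, of complex IV assembly (-0.52, 0.035). Lrpprc, which stabilises mitochondrial messenger RNA, rose by 0.38 at day 2 against untreated (adjusted p = 0.047). In the citric acid cycle and pyruvate list, 1 of 6 was lower at day 5 than at day 2: Mpc1, of the pyruvate carrier (-0.52 ± 0.12, SE, adjusted p = 0.0039). Among 8 carrier and pore genes, Slc25a11, the oxoglutarate carrier, was lower (-0.56, 0.0016) and Slc25a39, a glutathione carrier, higher (0.86, 0.026). In the cristae and fusion list limma called 0 of 7 from day 2 to day 5, with 0 at an unadjusted p under 0.05 (2448 of all 6515 features). Polg, the mitochondrial DNA polymerase, was higher by 0.66 at day 5 than at day 2 (limma adjusted p = 0.014), 1 of 3 tested genes of its list. Of 10 glycolysis genes, Aldoa rose by 0.61 at day 1 against untreated (adjusted p = 0.011) and Slc2a1, the glucose transporter GLUT1, fell by 1.01 from day 2 to day 5 (0.024).

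**Figure D4:**
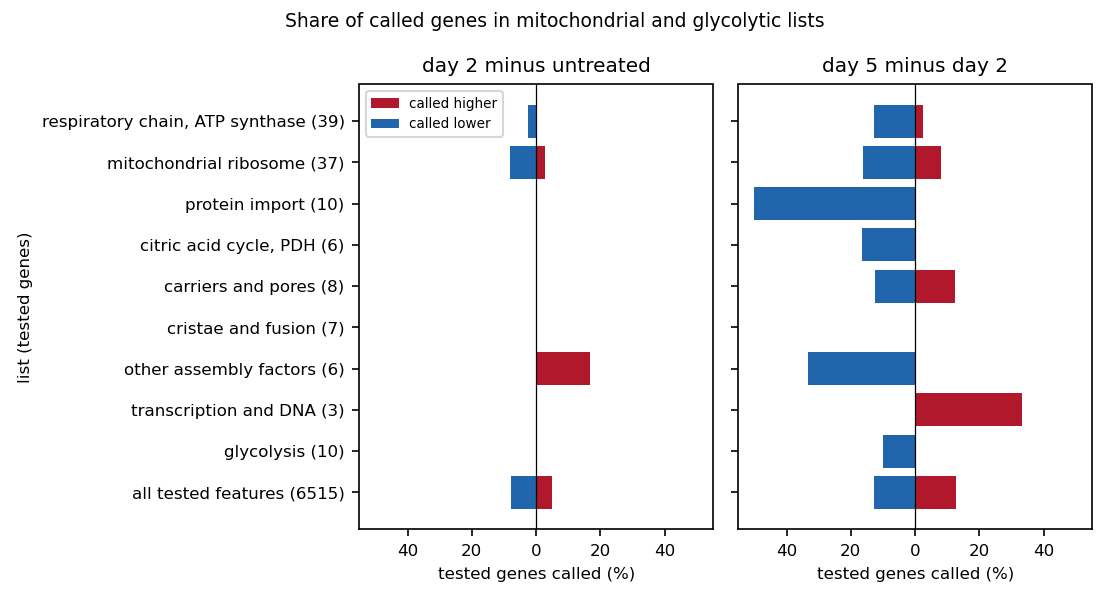
Share of tested genes called (x axis, percent; lower to the left of 0, higher to the right) at day 2 against untreated and at day 5 against day 2, by list (y axis, with the number of tested genes). The respiratory chain list has 1 lower gene of 39 at day 2 and 5 lower and 1 higher at day 5, and the protein import list has 5 lower of 10 at day 5. Of all tested features, 12.7% were lower and 12.8% higher at day 5 against day 2.

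The 37 untested members include 9 without a value in any sample, 21 with values in 1 to 3 samples and 7 with values in 4 or more. They are Atp5b, Atp5e, Atp5g1, Atp5h, Atp5j2, Atp5k, Atp5l, Atp5o, Cox5b, Cox6c, Cox7a1, Cox7a2, Cox7a2l, Cox7b, Cox7c, Cycs, Ndufa1, Ndufa13, Ndufa2, Ndufa4, Ndufa7, Ndufaf3, Ndufaf5, Ndufaf7, Ndufb10, Ndufb11, Ndufb3, Ndufb5, Ndufb7, Ndufb8, Ndufs4, Ndufs5-ps, Sdhaf4, Sdhb, Uqcrb, Uqcrfs1 and Uqcrh. Uqcrb, a small subunit of complex III, came nearest to being tested, with values in 12 samples. Its ratios were -0.33, -0.16, -0.63 and -0.70 in untreated samples, -0.87, -1.22, -0.93 and -1.20 at day 1, -1.16 and -0.97 in 2 day 2 samples, and 0.57 and -0.55 in 2 day 5 samples. The measured day 1 and day 2 values lie below the untreated ones, but Uqcrb was not in the main test. A filter of 2 values per group admits it, with 41 members tested. There, 2 members were called higher and 4 lower from day 1 to day 5 (1179 of 7596 features called). From day 2 to day 5, 2 were higher and 5 lower (1609 of 7596). In the main test 1 was higher in each comparison. The beta subunit of the ATP synthase (Atp5b), the iron-sulfur protein of complex III (Uqcrfs1) and cytochrome c (Cycs) are thus not covered by the counts above.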

How the data were processed

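The deposited values are log ratios of Cy5 (blood leukocytes) over Cy3 (pooled marrow) per the labels, 1 per probe and column, and were taken as log2 ratios. The sources used here do not state the log base, scanner, background correction, normalization or why values are missing. A natural log would scale every change by 1 factor, leave the calls and alter fold values. Column medians lay between -0.0028 and 0.025, so ratios show relative change, not amounts. The 30 columns were averaged to 15 samples and probes of a gene were averaged. Probes with 1 platform symbol were named (10032 of 13443). A group-means model of the 15 samples was fitted in limma 3.58.1 (R 4.3.3), followed by eBayes and Benjamini-Hochberg adjustment over 6515 features within each comparison, and were checked on simulated data. A change is the first-named group minus the second, with its standard error (SE). Depth does not apply; the number of arrays limits the precision. The members and lists were chosen with earlier results of these data known. Named are all called members, the 3 largest changes each way per comparison where they are discussed, members needed for a complex's range, and at most 3 called genes per other list, comparison and direction discussed, by size. Alternatives covered technical replicates, column scaling, filters, prior, weights, probes, a replicate block, fits of 2 groups and leaving out each sample.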

Additional observations from a re-analysis of the deposited data

Results flagged for a closer look

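In 9 of 105 groups of 4 samples (8.57%, where chance gives about 1 in 20), 1 sample lay far from the other 3 for a member. Those far below were Atp5md in day 2 replicate 2 (-1.46, others -0.28 to -0.19), Ndufc1 in day 2 replicate 3 (-0.95, others -0.11 to -0.03), Cox8a and Sdhc in untreated replicate 3 (-0.31 and -0.74), and Ndufa5 in untreated replicate 4 (-1.50) and in day 2 replicate 1 (-1.29). Those far above were Atp5c1 in untreated replicate 1 (0.34), Atp5d in day 1 replicate 2 (-0.16) and Ndufa8 in day 2 replicate 4 (0.17).

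The times after injection differed for 7 members by limma's test of one time against another. From day 1 to day 5, 12.8% of tested members were called, against 18.8% of all tested features. From day 2 to day 5 the shares were 15.4% and 25.5%. From day 1 to day 5 the changes were -0.66 for Atp5g2, -0.54 for Ndufs7, -0.53 for Atp5d, -0.42 for Cyc1 and 0.65 for Uqcrc1. From day 2 to day 5 they were -0.61 for Ndufs7, -0.57 for Ndufb4, -0.53 for Atp5g2, -0.43 for Atp5d, -0.39 for Cyc1 and 0.44 for Ndufa9. Both sets share the day 5 samples.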

How the results depend on the processing

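Across 26 alternative settings the count of called members moved by over 1.5 times mainly in the comparisons with 1 call. At day 1 against untreated it was 0 with technical replicate 1 or 2 alone, with a filter of 2 values and with the replicate block, 2 with values in all samples only and with a fit of the 2 groups alone, and 4 with array weights. With quantile normalization, scaling to 1 spread and the robust prior it stayed at 1, but the call was Cox5a, higher, and Ndufc2 was lost. Over all features the day 1 calls moved too. They were 300 as reported, 107 with the replicate block, 578 with the fit of 2 groups and 863 with array weights. Technical replicates 1 and 2 alone gave 216 and 275, the filter 240 and values in all samples 357. Quantile normalization, scaling and the robust prior gave 462, 521 and 327. At day 2 the member count was 0 with technical replicate 2 alone, quantile normalization, scaling to 1 spread, a robust trended prior and the fit of 2 groups. In these settings 684 to 1046 of all features were called, against 826 as reported. At day 5 the member count was 0 with technical replicate 1 alone, quantile normalization, scaling, the robust prior, array weights, the replicate block and the fit of 2 groups. There 34 to 111 of all features were called, against 71 as reported. At day 5 relative to day 1 scaling left 3 members (1026 features, 1222 as reported). Relative to day 2 scaling left 0 members (1355 features, 1664 as reported) and the fit of 2 groups 2 (935 features). The F test gave 3 with quantile normalization, 0 with scaling (limma, with 6 at an unadjusted p under 0.05) and 3 with the replicate block. Over all features it called 1480, 1428 and 1181 in these settings, and 1476 as reported. The cause was not tested. The spread of columns (median absolute deviation) was 0.267 to 0.481 in untreated samples and 0.384 to 0.549 at day 5.

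Leaving out 1 sample gave 0 to 2 calls at each of days 1, 2 and 5 against untreated, 0 to 0 from day 1 to day 2, 4 to 9 relative to day 1 (9 without day 5 replicate 3), 4 to 7 relative to day 2 and 4 to 7 in the F test. Counts over all features are not set beside these ranges. The uncalled change of Ndufa6 from day 2 to day 5 ran from -0.053 (reversed, without day 5 replicate 2) to 0.59 (without day 5 replicate 3). Same-numbered samples did not deviate together (21 pairs, r from -0.28 to 0.17, 6 over 0.1), so the replicate numbers were not taken as pairs. With the replicate block 1 member was called at day 2 against untreated (675 of all 6515 features, 826 as reported). At day 5, 5 members were called relative to day 1 (931 features, 1222 as reported) and 6 relative to day 2 (1455 features, 1664 as reported). Missing values limit the account to 39 of 76 members.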
